A study of Mus musculus with 20 samples.

Results

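The livers described here are those of the 4 male Balb-C mice that received vehicle only, out of 20 mice in the series. They were chosen by the labelled dose of 0 mg/kg, and every one of their 21450 measured genes was ranked by level and by spread between the mice. The series examined the liver after dosing with Nafion byproduct 2 (PFESA-BP2), a perfluorinated alkyl substance. Each of 5 groups held 4 mice, which were given vehicle or daily amounts of 0.03, 0.3, 3 or 6 mg/kg. All mice were 10 to 12 weeks old, were of an inbred strain without any stated genetic change, and were gavaged once a day in the afternoon for 7 days. The protocols give deionized water to the controls while the control titles carry the word DMSO, and which vehicle was used is not settled here. Each library came from 1 animal. Control mice 1 to 4 sat in row A of the plate, in columns 2 to 5 in that order. All libraries of 3 and 6 mg/kg sat in row B, so dose and plate row cannot be told apart in comparisons with them. RNA was measured by TempO-Seq, in which a pair of short detector oligonucleotides is ligated on its target RNA, amplified and counted. Levels are given in CPM, the count of a probe scaled to 1000000 counts of the library, for 1 probe per gene, the one with the highest mean count over all 20 libraries, scaled by the trimmed mean of M values. The percent of counts held by a gene list is taken over all probes of its genes. The percent held by the most abundant genes, and the summed CPM of a list, use 1 probe per gene. The control libraries held 7123004 to 9890662 counts, so that 3 counts correspond to 0.323 to 0.420 CPM.

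The hepatocyte makes up most of the liver's mass and is a secretory and metabolic cell. It releases albumin, clotting factors, complement, protease inhibitors and lipoproteins into plasma, and it detoxifies drugs with cytochromes P450 and conjugating enzymes. It also disposes of nitrogen through the urea cycle. Male mouse liver in addition secretes major urinary proteins, lipocalins that carry pheromones into urine, under the control of pulsed growth hormone. A count stands for a ligated probe and not for a length of transcript, and a probe's own efficiency enters each level. Where a gene of at least 20 CPM had a second probe also at 20 CPM, the levels of the pair differed by a median of 1.88-fold (719 genes), so that small steps in rank between genes carry no information.

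Promoters of genes with a high level, a large spread or a small spread between control mice are shown first. Promoter windows came from RefSeq (GRCm38.p6) and run from 250 bases before the start to 50 bases after it. Capitals mark 3 short motifs, each read on both strands. TATAAA is the core of a TATA box. GGGCGG is a GC box bound by Sp1. GTTAAT is part of the site of hepatocyte nuclear factor 1, a liver transcription factor. Shown are Mup4, Fabp1, Alb, Cyp2e1 and Apoa1 of the abundant genes, Saa2, Dbp and Alas1 of the variable ones, and Il6st, the gene with the smallest spread. They are examples, in which TATAAA and GTTAAT stand more often than in the abundant genes as a whole.
Mup4: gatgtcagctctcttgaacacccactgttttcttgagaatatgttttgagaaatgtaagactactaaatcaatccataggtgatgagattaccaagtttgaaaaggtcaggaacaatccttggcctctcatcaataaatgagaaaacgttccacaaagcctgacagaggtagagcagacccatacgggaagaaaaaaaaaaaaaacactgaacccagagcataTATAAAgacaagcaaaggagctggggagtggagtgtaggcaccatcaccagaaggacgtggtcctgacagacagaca
Fabp1: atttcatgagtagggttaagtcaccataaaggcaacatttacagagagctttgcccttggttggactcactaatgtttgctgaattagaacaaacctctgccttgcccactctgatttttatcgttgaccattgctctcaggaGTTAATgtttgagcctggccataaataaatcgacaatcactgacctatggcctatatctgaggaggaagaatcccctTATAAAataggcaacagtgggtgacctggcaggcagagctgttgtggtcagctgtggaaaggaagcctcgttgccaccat
Alb: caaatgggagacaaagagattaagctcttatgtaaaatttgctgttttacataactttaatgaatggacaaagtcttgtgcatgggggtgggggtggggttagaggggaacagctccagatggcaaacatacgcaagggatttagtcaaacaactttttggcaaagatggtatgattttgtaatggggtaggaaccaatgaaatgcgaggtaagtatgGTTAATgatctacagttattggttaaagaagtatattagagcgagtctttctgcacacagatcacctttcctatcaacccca
Cyp2e1: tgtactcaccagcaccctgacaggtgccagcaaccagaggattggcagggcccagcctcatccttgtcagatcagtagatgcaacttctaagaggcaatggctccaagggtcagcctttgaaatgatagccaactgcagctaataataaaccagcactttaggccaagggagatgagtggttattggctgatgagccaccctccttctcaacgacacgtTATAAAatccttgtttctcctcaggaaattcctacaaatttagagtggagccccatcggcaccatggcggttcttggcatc
Apoa1: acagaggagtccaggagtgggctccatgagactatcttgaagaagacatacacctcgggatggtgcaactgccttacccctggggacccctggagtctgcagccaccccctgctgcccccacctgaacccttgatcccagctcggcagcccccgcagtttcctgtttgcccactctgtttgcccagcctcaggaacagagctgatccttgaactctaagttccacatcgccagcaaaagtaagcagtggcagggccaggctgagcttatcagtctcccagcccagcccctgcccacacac
Saa2: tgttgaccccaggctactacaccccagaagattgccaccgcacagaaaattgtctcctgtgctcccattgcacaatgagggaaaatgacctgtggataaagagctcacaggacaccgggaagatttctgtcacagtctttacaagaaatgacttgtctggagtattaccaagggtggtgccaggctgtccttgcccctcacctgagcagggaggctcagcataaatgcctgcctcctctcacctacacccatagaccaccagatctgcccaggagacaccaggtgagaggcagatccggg
Dbp: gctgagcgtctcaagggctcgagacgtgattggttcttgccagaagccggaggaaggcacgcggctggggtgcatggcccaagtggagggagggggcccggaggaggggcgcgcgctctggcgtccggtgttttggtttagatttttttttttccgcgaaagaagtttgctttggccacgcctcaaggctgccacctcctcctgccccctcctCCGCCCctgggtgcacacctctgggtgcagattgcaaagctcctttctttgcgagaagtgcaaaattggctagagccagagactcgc
Alas1: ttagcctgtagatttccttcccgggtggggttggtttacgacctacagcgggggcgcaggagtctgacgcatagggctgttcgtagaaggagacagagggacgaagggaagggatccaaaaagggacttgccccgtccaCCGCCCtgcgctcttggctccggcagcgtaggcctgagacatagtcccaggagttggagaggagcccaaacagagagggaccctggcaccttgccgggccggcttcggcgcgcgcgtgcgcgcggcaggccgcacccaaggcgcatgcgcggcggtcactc
Il6st: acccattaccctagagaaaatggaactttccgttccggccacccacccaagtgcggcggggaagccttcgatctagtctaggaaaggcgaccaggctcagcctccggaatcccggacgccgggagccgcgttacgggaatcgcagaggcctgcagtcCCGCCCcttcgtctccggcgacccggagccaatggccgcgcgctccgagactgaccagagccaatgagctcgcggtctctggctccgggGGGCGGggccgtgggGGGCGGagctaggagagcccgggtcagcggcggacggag
Mup4 lies on chr4:59960618-59960917 on the minus strand, Fabp1 on chr6:71199629-71199928 on the plus strand and Alb on chr5:90460620-90460919 on the plus strand. Cyp2e1 lies on chr7:140763569-140763868 and Il6st on chr13:112463820-112464119, both on the plus strand. Apoa1 lies on chr9:46228380-46228679, Saa2 on chr7:46751583-46751882 and Dbp on chr7:45704997-45705296, all on the plus strand, and Alas1 on chr9:106247905-106248204 on the minus strand. TATAAA began 27 bases before the start of Mup4, 30 before that of Fabp1 and 31 before that of Cyp2e1. Alb and Fabp1 held GTTAAT. Il6st held GGGCGG at 3 places, and Dbp and Alas1 held it once each, read on the other strand. Apoa1 and Saa2 held none of the 3 motifs. The windows of Mup4, Fabp1, Alb and Cyp2e1 held 3 or 4 CpG pairs each, as did those of Apoa1 and Saa2. The windows of Dbp, Alas1 and Il6st held 18, 27 and 33.

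Among the 100 most abundant genes, 79 matched a promoter, and 24.1% of these held TATAAA on either strand. The share was 8.41% among the 2914 matched genes of at least 20 CPM and 14.2% among all 27025 promoters. At 15 to 45 bases before the start, on the gene's own strand, TATAAA stood in 6 of the 79 windows of abundant genes (7.60%), in 1.65% of those of genes of at least 20 CPM and in 2.36% of all. GTTAAT stood in 20.3% of the promoters of the most abundant genes, in 5.42% of those of genes of at least 20 CPM and in 7.20% of all. GGGCGG went the other way, with 26.6% for the most abundant genes, 63.1% for genes of at least 20 CPM and 35.9% for all. The median window of the most abundant genes held 4 CpG pairs and 47.7% G and C, against 21 CpG pairs and 60.3% in genes of at least 20 CPM. For the 67 matched genes of the 100 most variable ones the shares were 17.9% for TATAAA and 56.7% for GGGCGG, and for the 78 matched genes of the 100 least variable ones 2.56% and 66.7%. CACGTG, the E-box read by clock proteins and Myc, stood in 5.06% of the promoters of the most abundant, 5.97% of the most variable and 17.9% of the least variable genes, with 11.02% in genes of at least 20 CPM. Several of the most abundant genes are tandem copies with like promoters, so these windows are not independent, and a match is a description of letters only.

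Control livers devoted their counts to few genes. The 10 most abundant genes took 18.6% ± 2.55 of a library's counts (SD, n = 4), the top 30 took 28.4% ± 2.36 and the top 100 took 40.6% ± 1.82. Between 124 and 179 probes, with a mean of 153, were enough to hold 50% of a library's counts. Of the 21450 genes, 8 stood at 10000 CPM or more, 90 between 1000 and 10000 and 1141 between 100 and 1000. A further 3899 stood between 10 and 100, 4484 between 1 and 10, and 11828 below 1 CPM. The 8 genes at the top held 17.1% of the counts, and the 11828 at the bottom held 0.191%. Control mouse 3 had the most concentrated library, with 21.6% of its counts in the top 10 genes, and control mouse 2 the least, with 15.4%.

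Major urinary proteins led the ranking. Their 15 measured genes lie in 1 cluster of chromosome 4, at 59956804 to 62150863 of GRCm38, which the GENCODE M21 annotation fills with 22 protein-coding genes and 26 pseudogenes. Their probes took 16.3% ± 3.70 of the counts (SD, n = 4). Mup4 had 54900, 38598, 58763 and 49000 CPM in control mice 1 to 4 and, by the probe that stands for it, was the most abundant gene. Mup7 had 34079, 19272, 49574 and 36829 CPM, and Mup13 had 23595, 12895, 31862 and 22635 CPM. Control mouse 3 was highest and control mouse 2 lowest for all 3. Mup3 went otherwise, with 18471, 18647, 16472 and 14665 CPM. At the other end of the family, Mup5 had 1 count in control mouse 2 and none in the other 3. Many members of the cluster are nearly identical in sequence, and which of them each probe counts was not examined. Both other probes of Mup4 stood at 0.907 CPM or less in every control library, so its rank rests on its main probe alone. How counts divide between members is therefore uncertain, while the sum over the family is less so.

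Plasma carriers took 3.44% ± 0.147 of the counts. Alb, serum albumin, had 11517, 9994, 10548 and 10597 CPM, a level of 10664 ± 631 CPM (SD, n = 4), and ranked 8th. Its 4 values lay within 1.15-fold of each other, the tightest of the 10 most abundant genes. Trf, the iron carrier transferrin, was tighter still with 3974, 4095, 4182 and 4186 CPM, and its second probe had 2427, 2340, 2326 and 2398 CPM. Ambp, the precursor of alpha-1-microglobulin and bikunin, averaged 2628 ± 394 CPM. All 16 carriers measured stood at 20 CPM or more, and the lowest was Serpina6, the carrier of corticosteroids, at 34.4 ± 10.9 CPM.

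Protease inhibitors took 4.95% ± 0.154 of the counts and were among the steadiest large classes, with sums within 1.05-fold between the 4 mice. Serpina3k had 7830, 8490, 10679 and 8450 CPM. Serpina1e and Serpina1b, copies of alpha-1-antitrypsin, averaged 7321 ± 736 and 6611 ± 708 CPM. Pzp, an alpha-2-macroglobulin that traps proteases of many classes, had 4774, 4712, 4584 and 5012 CPM. In all, 22 of 26 measured inhibitors reached 20 CPM. Spink1, a trypsin inhibitor of the pancreas, had no count in any control.

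Apolipoproteins took 3.57% ± 0.442. Apoa1, the main protein of high-density lipoprotein, had 7548, 7001, 4657 and 5960 CPM. Apoc3, an inhibitor of triglyceride clearance, had 4555, 4396, 3057 and 3628 CPM, and Apof, a regulator of lipid transfer, averaged 3717 ± 545 CPM. Apoe, the ligand for remnant uptake, averaged 3674 ± 442 CPM. Control mouse 3 was lowest for Apoa1, Apoc3 and Apoe. Apoc1, an activator of lecithin cholesterol acyltransferase, split the mice most plainly, with 2010 and 1993 CPM in control mice 1 and 2 and 1056 and 1114 CPM in control mice 3 and 4.

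Coagulation genes took 3.37% ± 0.213, led by the 3 chains of fibrinogen. Fga averaged 6203 ± 701 CPM, Fgb 5903 ± 785 CPM and Fgg 3767 ± 184 CPM. Of 24 clotting and fibrinolysis genes measured, 20 reached 20 CPM. None of these varied by an SD of 0.5 or more on the log2 scale, where all genes had 88 of 3697, or 2.38%. Their median SD was 0.174, near the 0.180 of all genes. Complement took 2.05% ± 0.185, with Cfhr2, a factor H-related protein, at 3209 ± 175 CPM. C3, on which the pathways converge, averaged 1482 ± 141 CPM, and C9, the pore-forming unit, 1475 ± 207 CPM. Cfd, complement factor D, an adipocyte product, had 2 counts in control mouse 2, 2 in control mouse 4 and none in the others. The list of acute-phase proteins held 0.861% ± 0.0884. It leaves out the fibrinogen chains, listed under coagulation, and Serpina3k, listed under protease inhibitors, so its share depends on that choice. Its highest members were Cp, the copper carrier ceruloplasmin, at 2033 ± 217 CPM, C3, and Hp, the haemoglobin scavenger haptoglobin, at 1288 ± 151 CPM.

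**Figure D1:**
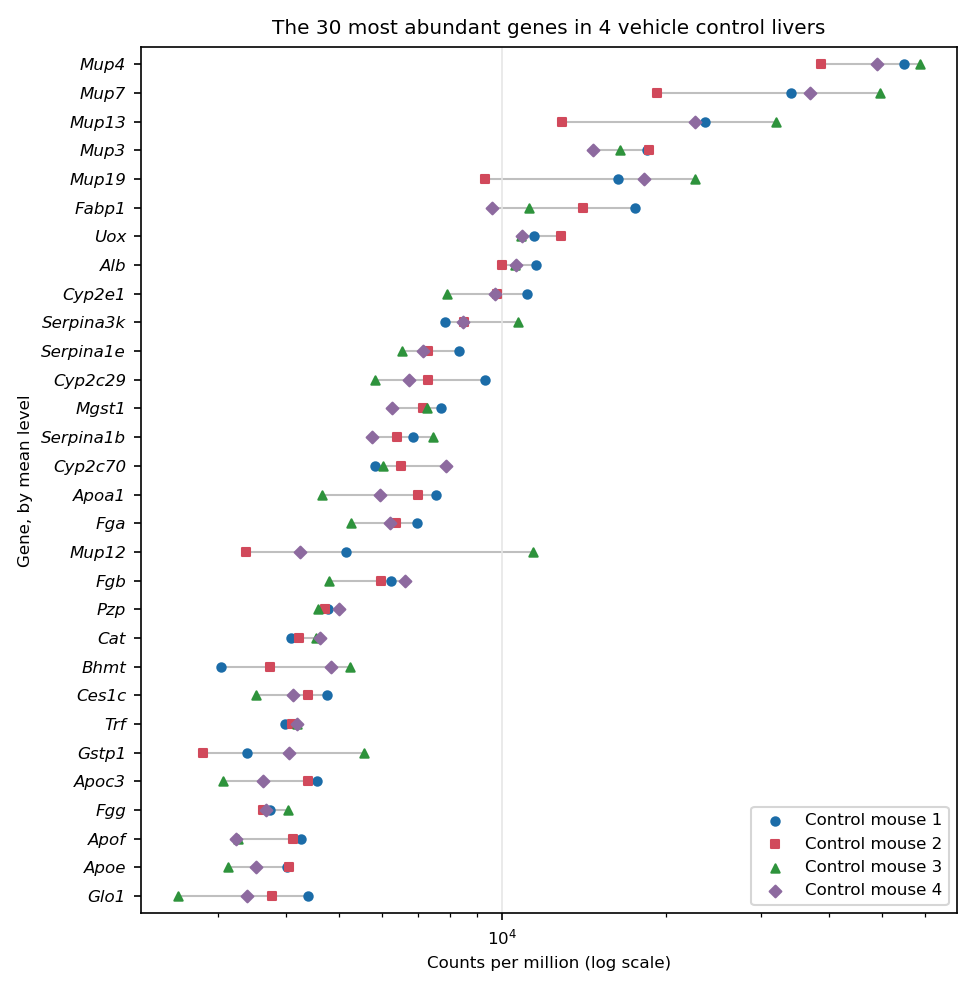
Level of the 30 most abundant genes in each of the 4 vehicle control livers, in CPM on a log axis, with 1 symbol per mouse and a line over the range of each gene. Mup4 tops the plot at 38598 to 58763 CPM, and Mup7, Mup13, Mup19 and Mup12 spread far more between mice than Alb, Pzp or Trf.

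Among enzymes of drug and hormone metabolism, cytochromes P450 of families 1 to 4 took 5.27% ± 0.531 of the counts. Cyp2e1, which oxidises ethanol and acetone in pericentral hepatocytes, had 11095, 9764, 7925 and 9683 CPM. Cyp2c29 had 9278, 7302, 5828 and 6739 CPM, and its second probe of near-equal level had 10402, 7620, 5930 and 7087 CPM in the same order of mice. Cyp2c70, which makes muricholic acids, averaged 6558 ± 920 CPM. Cyp3a11, the main drug-metabolising member of its family, averaged 1562 ± 333 CPM. The P450 list was uneven, with 29 of 80 measured genes at 20 CPM or more, 21 at or under 3 counts in every control and 6 without a count. Cyp3a41b, listed as female-biased, stood at 3092 ± 362 CPM in these males, but copies of this subfamily are so alike that its probe may count several of them.

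Conjugation and detoxification were led by single genes. Mgst1, a membrane glutathione transferase, averaged 7099 ± 608 CPM, and Gstp1, a male-predominant cytosolic one, had 3391, 2809, 5557 and 4050 CPM. Ugt2b5, a glucuronosyltransferase, averaged 3215 ± 312 CPM, and Ugt1a1, which conjugates bilirubin, was nearly flat with 1678, 1641, 1644 and 1612 CPM. Ces1c, a secreted carboxylesterase, averaged 4193 ± 515 CPM. Cat, the peroxisomal catalase, averaged 4364 ± 252 CPM. Uox, the urate oxidase that humans lack, had 11445, 12821, 10809 and 10876 CPM and ranked 7th. Glo1, which clears methylglyoxal, averaged 3513 ± 779 CPM.

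Genes of amino acid breakdown and the urea cycle took 2.88% ± 0.233. All 56 measured were at 1 CPM or more. Bhmt, which remethylates homocysteine, had 3032, 3739, 5245 and 4829 CPM. Hpd, of tyrosine breakdown, averaged 3007 ± 128 CPM, and Arg1, which releases urea, was flat with 3041, 3009, 2873 and 3037 CPM. Ass1, an earlier urea cycle step, had 725, 947, 1264 and 1405 CPM, and Cps1, which makes carbamoyl phosphate, had 185, 213, 364 and 388 CPM. Both were higher in control mice 3 and 4 than in 1 and 2.

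In lipid and sugar metabolism, Fabp1, the cytosolic fatty acid carrier, was the only gene above 10000 CPM. It had 17556, 14067, 11178 and 9583 CPM. Acaa2, the last enzyme of mitochondrial beta-oxidation, averaged 3067 ± 524 CPM. Elovl3, a male-predominant fatty acid elongase, had 1711, 1223, 2398 and 1662 CPM. Pygl, liver glycogen phosphorylase, was flat at 961 ± 32.7 CPM, and Fbp1, a gluconeogenic phosphatase, averaged 820 ± 107 CPM. Rate-limiting enzymes stood far below these. Cyp7a1, which starts bile acid synthesis, averaged 7.98 ± 2.63 CPM, Fasn, fatty acid synthase, 5.26 ± 2.11 CPM, and Cpt1a, the entry of fatty acids into mitochondria, 1.51 ± 0.263 CPM. G6pc, which releases free glucose, averaged 88.3 ± 24.0 CPM.

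Cell maintenance took less of the library than secretion. The 79 cytosolic ribosomal protein genes held 1.88% ± 0.301, the 81 nuclear genes of oxidative phosphorylation 1.54% ± 0.119 and the 39 proteasome subunits 0.455% ± 0.0469. The 8 mitochondrially encoded genes held 0.287% ± 0.0588, led by mt-Cytb at 662 ± 84.6 CPM. None of the ribosomal genes was among the 100 most abundant, where Rpl4 came nearest at 763 ± 99.3 CPM. Among transcription factors, Creb3l3, which drives fasting and lipoprotein genes, averaged 1125 ± 75.7 CPM and Cebpa, a hepatocyte identity factor, 912 ± 67.2 CPM.

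Markers of other liver cells were present at low level. Stellate cell and matrix genes held 0.0465% ± 0.0027 of the counts with Dcn, the proteoglycan decorin, at 77.0 ± 18.6 CPM. Endothelial genes held 0.0433% ± 0.00283, with the inhibitory antibody receptor Fcgr2b at 79.3 ± 15.9 CPM. Kupffer cell genes held 0.0380% ± 0.00192, with C1qb, a chain of C1q, at 57.4 ± 13.4 CPM, and the bile duct markers 0.00809% ± 0.000506. These 4 lists varied by at most 1.18-fold in their summed level between mice. Markers of blood-borne cells stood lower, and the red cell gene Hbb-bt, a beta-globin, had 9.22, 14.3, 29.9 and 13.5 CPM. Of the defining markers, Lyve1 of sinusoidal endothelium stood at 0.140 CPM or less, Timd4 of Kupffer cells had 3 counts in control mouse 1 and none elsewhere, and Acta2 of contractile cells stood at 0.259 CPM or less. In bulk tissue, fewer cells of a type and less RNA per cell cannot be told apart. The cell division list held 0.0120% ± 0.00126, with Pcna, the sliding clamp of replication, at 28.4 ± 1.33 CPM as its only member above 20 CPM. Fetal genes were near the floor, with Afp, alpha-fetoprotein, at 0.498, 1.26, 0.646 and 0.389 CPM.

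**Figure D2:**
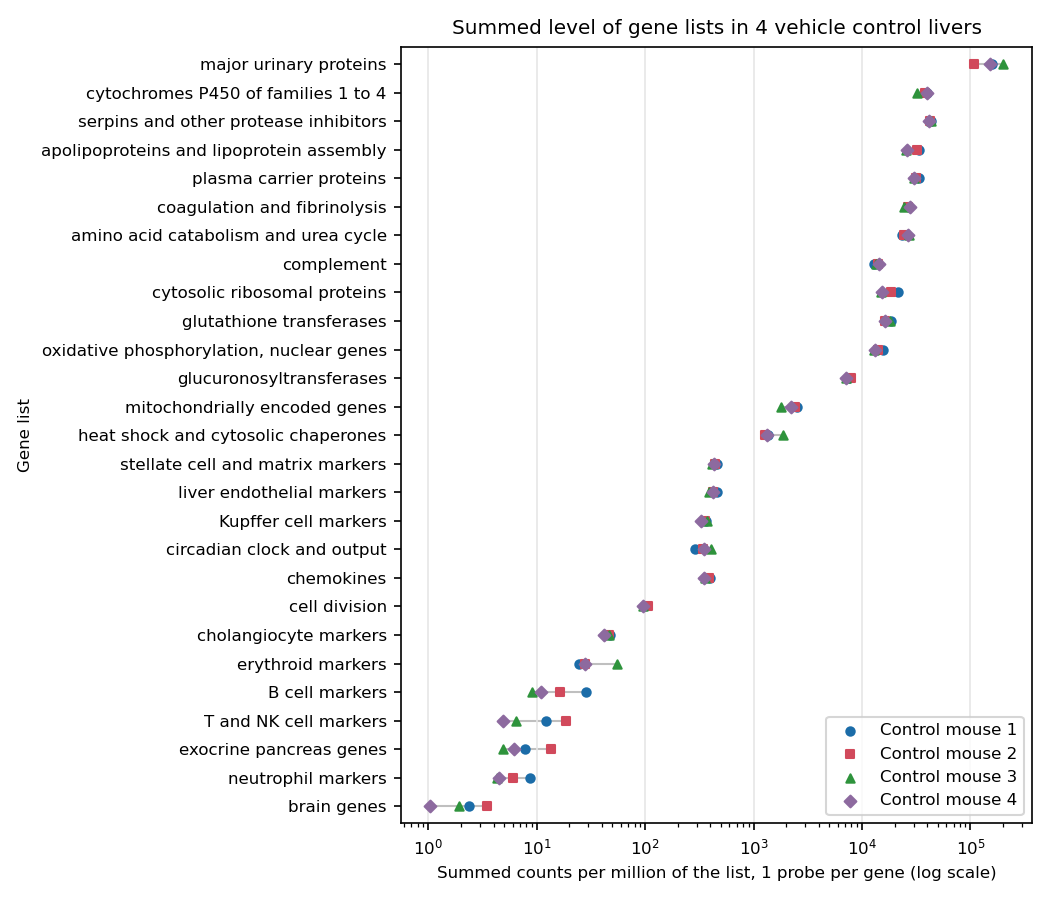
Summed CPM of gene lists, with 1 probe per gene, on a log axis, with 1 symbol per control mouse. Major urinary proteins lie at 107160 to 201290 CPM, stellate cell markers at 415 to 462 CPM, and brain genes at 1.04 to 3.50 CPM.

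The bottom of the ranking was wide. Of 30146 probes, 4622 had no count in any control, which is 15.3%, and 8198 genes had 3 counts or fewer in every control. Markers of other tissues sat there. Summed over their lists, brain genes held 0.000289% of the counts, heart genes 6.84e-05%, kidney genes 1.05e-05% and testis genes 2.74e-05%. Exocrine pancreas genes held 0.00087%, where Cela1, an elastase, was the highest at 4.90 ± 0.959 CPM. A count of 0 in 1 library allows a level of up to 0.323 to 0.420 CPM, counting error only. Several genes of known liver or general use were also listed at 0 in all 4 controls: Sdhb, a subunit of succinate dehydrogenase that nearly every cell needs, Per1 of the clock and Nnmt of nicotinamide methylation. Fgl1, a protein secreted by hepatocytes, averaged 0.171 CPM and Tfr2, a hepatocyte iron sensor, 0.468 CPM. A listing at or near 0 is therefore not read as absence of the RNA.

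Control mouse 2 stood apart in this range. Its library had 6728 probes at 0, against 10425 to 11036 in the other 3 controls, though it was the shallowest of the 4. The 1299 probes for olfactory receptors held 375, 5264, 531 and 222 counts in control mice 1 to 4. A count was seen for 969 of these probes in control mouse 2, against 229, 310 and 166 in control mice 1, 3 and 4. With 1 probe per gene, the summed level of the family was 44.9, 693, 54.4 and 26.8 CPM. Vomeronasal receptors went the same way with 27.5, 386, 33.6 and 17.4 CPM, as did taste receptors, keratin-associated proteins, beta-defensins and interferon genes. Without control mouse 2, the probes with no count in any control number 7642 in place of 4622. The highest single olfactory probe of control mouse 2 held 59 counts, so many probes carried a few counts each rather than 1 carrying all. The cause of this low background was not tested.

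A pair of predicted genes was also highest in control mouse 2. Gm10717 (chr9:3025417-3033289 of GRCm38, plus strand) had 501, 1705, 407 and 91.0 CPM. Gm10720 (chr9:3015654-3017210, plus strand) had 3.24, 86.7, 0.754 and 0.648 CPM. Unlike the olfactory and vomeronasal receptors, both genes were higher in control mouse 1 than in control mouse 3. Both are annotated as protein coding in GENCODE M21, both lie within the first few megabases of chromosome 9, and no role is given for either. In treated mice the receptor background varied as well. Olfactory probes held 63 to 408 counts at 0.03, 44 to 178 at 0.3, 462 to 1433 at 3 and 71 to 1279 at 6 mg/kg, and Gm10717 had 14.7 to 98.3, 7.19 to 81.5, 149 to 1065 and 5.99 to 782 CPM at those doses. Control mouse 2 was above every other library of the series in both.

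**Figure D3:**
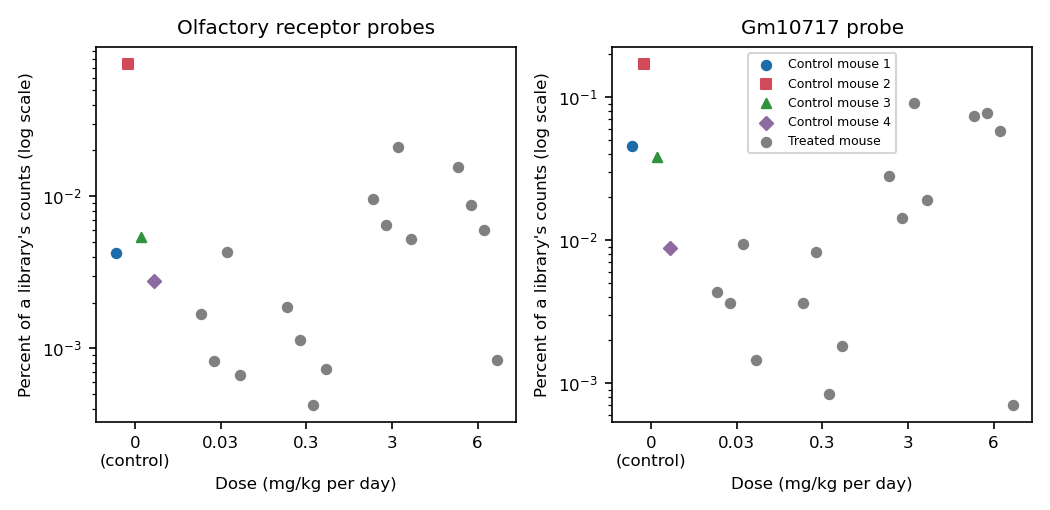
Percent of each library's counts on olfactory receptor probes (left) and on the Gm10717 probe (right), on log axes, for 4 controls and 4 mice per dose in mg/kg per day. Control mouse 2 is the highest library in both panels at 0.0739% and 0.171%, while control mouse 4 lies at 0.00277% and 0.00876%.

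The spread between control mice was small for most genes. Over the 3697 genes of at least 20 CPM, the SD of log2 CPM between the 4 mice had a median of 0.180, and 80% of genes lay between 0.0834 and 0.341. Counting error alone would give a median of 0.0663. An SD of 0.5 or more was found in 88 of 3697 genes, or 2.38%, and an SD of 1 or more in 5. In 132 genes the highest mouse was at least 2-fold above the lowest. The median SD was 0.191 for genes of 20 to 50 CPM, 0.169 for 100 to 300 CPM, 0.192 for 1000 to 10000 CPM and 0.324 for the 8 genes above that. Control mice 1 and 2 were the most alike, with a median difference of 0.136 on the log2 scale. Control mouse 1 differed from 3 by 0.243 and from 4 by 0.244, and control mice 3 and 4 differed by 0.184.

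**Figure D4:**
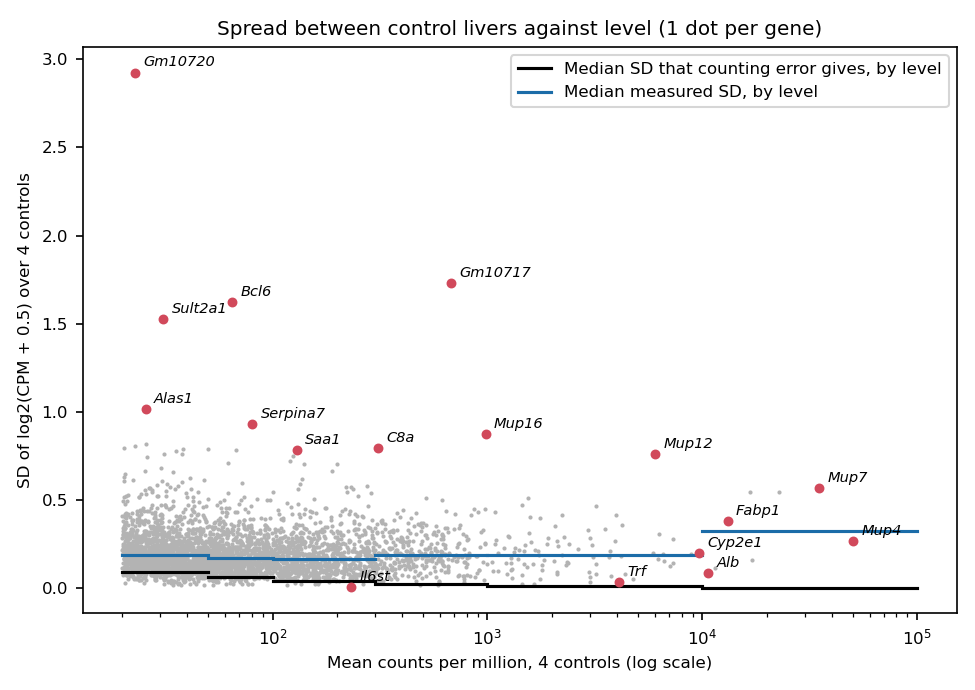
SD of log2(CPM + 0.5) over the 4 controls against mean CPM on a log axis for 3697 genes, 1 dot each, with named genes in red. Blue lines give the median SD by level and black lines the SD expected from counting error, and Gm10720, Gm10717, Bcl6, Sult2a1 and Alas1 lie above 1.

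Besides the Gm10720 and Gm10717 probes, 3 genes had an SD of 1 or more. Bcl6 (chr16:23965052-23988852), a transcriptional repressor that growth hormone signalling through STAT5 holds down in liver, had 19.8, 13.4, 58.1 and 168 CPM. The 0.03 mg/kg mice lay between 124 and 144 CPM, within the range of the controls. Sult2a1 (chr7:13796246-13837409), a sulfotransferase for steroids and bile acids that is higher in female mouse liver, had 73.9, 33.2, 10.33 and 6.87 CPM. Its second probe put the 4 mice in the same order, with 9.10, 3.36, 1.08 and 1.04 CPM. Alas1 (chr9:106233455-106248654), the first enzyme of haem synthesis, had 20.2, 11.8, 57.4 and 13.4 CPM. A second probe for Alas1 had 5.73, 2.10, 10.6 and 2.20 CPM, so that control mouse 3 was highest and control mouse 2 lowest by both.

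Control mouse 1 was highest for a group of P450s and secreted proteins. Serpina7, the thyroxine carrier, had 172, 60.8, 40.3 and 48.3 CPM, and its second probe 15.2, 6.72, 3.55 and 3.63 CPM. Cyp2b10, the marker of the receptor CAR, had 90.5, 74.2, 28.9 and 54.8 CPM, and its second probe 107, 95.0, 42.3 and 75.3 CPM. Cyp2c55, another CAR and PXR target, had 43.5, 22.0, 11.6 and 15.04 CPM, and Cyp4a31, a fatty acid hydroxylase of the PPARalpha program, 43.7, 29.6, 13.9 and 16.7 CPM. In all 3 P450s, control mice 1 and 2 stood above 3. Hamp, the iron hormone hepcidin, had 94.8, 64.3, 48.2 and 39.8 CPM. Below the 20 CPM limit, control mouse 1 was also highest for Fgf21, a fasting hormone, with 5.48, 1.40, 0.754 and 1.81 CPM. Mt2, a metallothionein, had 7.73, 2.94, 0.861 and 3.24 CPM there.

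Control mouse 2 was highest for 3 of the 4 acute-phase genes with an SD of 0.5 or more, and the fourth was Hamp. Of all 88 genes with such an SD, 7 were highest in control mouse 2, and of all 3697 genes 428 were. Saa1 (chr7:46740497-46742980), serum amyloid A, had 65.5, 239, 121 and 94.6 CPM, and its neighbour Saa2 had 26.3, 73.1, 33.4 and 20.2 CPM. Reads of these 2 near-copies may be shared, so the 2 may not be separate readings. Lcn2, a siderophore-binding lipocalin of the innate response, had 12.8, 49.7, 23.1 and 17.6 CPM. Other acute-phase proteins moved little, and Cp, C3 and Hp lay within 1.31-fold between mice.

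Control mouse 3 was highest for most major urinary proteins and most heat shock and cytosolic chaperones. Mup16 had 758, 431, 1875 and 855 CPM, and Mup12 had 5160, 3379, 11398 and 4243 CPM. Of the 11 Mup genes at 20 CPM or more, 9 were highest in control mouse 3 and 9 lowest in control mouse 2. Over all genes, 834 of 3697 were highest in control mouse 3 and 834 lowest in control mouse 2. Of the 11, 5 had an SD of 0.5 or more, where all genes had 88 of 3697. Male-biased liver genes were highest in control mouse 3 for 11 of 14, against 834 of 3697 genes in all. Dbp, a clock output that binds D-box promoters, had 18.6, 37.7, 63.1 and 22.6 CPM, and both of its other probes were also highest in control mouse 3 and lowest in control mouse 1. Nr1d1, the repressor Rev-erb alpha, had 10.6, 16.9, 31.1 and 23.7 CPM. The 8 clock genes at 20 CPM or more had a median SD of 0.380, against 0.180 over all genes. Of the 8, 4 were highest and 3 lowest in control mouse 3, where all genes had 834 and 1258 of 3697. Hsph1, a large heat shock protein, had 12.3, 11.6, 39.6 and 17.6 CPM, and 9 of 11 chaperones of its list were highest in control mouse 3. In the list of endoplasmic reticulum stress and chaperones, 8 of 17 were highest there. Pck1, the control point of gluconeogenesis, had 69.3, 83.2, 216 and 116 CPM.

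Control mouse 4 was highest for a mixed group. Tbx3, a transcription factor of pericentral hepatocytes, had 28.4, 45.1, 30.7 and 95.4 CPM. Selenot, a selenoprotein of the endoplasmic reticulum, had 92.6, 86.4, 77.5 and 239 CPM, and Vamp8, a membrane fusion protein, 35.3, 25.4, 14.2 and 50.6 CPM. C8a, a chain of the complement pore, had 263, 183, 190 and 601 CPM by its main probe. Its second probe had 261, 258, 232 and 236 CPM, so the high value of control mouse 4 was seen by 1 probe alone. The same held for Hnrnpu, an RNA-binding protein, whose second probe had an SD of 0.0943 against 0.627 for the first.

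**Figure D5:**
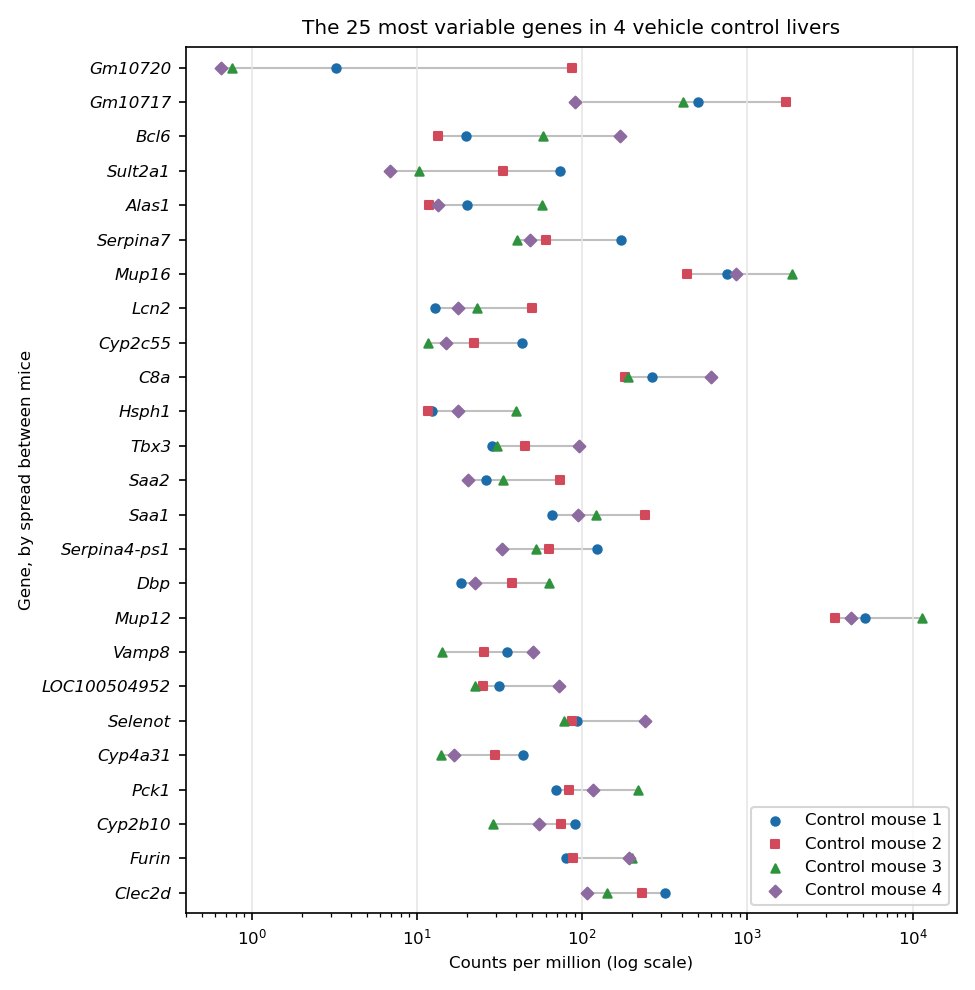
Level of the 25 genes with the largest SD between the 4 control livers, in CPM on a log axis, ordered by spread, with 1 symbol per mouse. Saa1, Saa2 and Lcn2 are highest in mouse 2, Mup16, Mup12, Dbp and Pck1 in mouse 3, Serpina7 and Cyp2b10 in mouse 1 and Bcl6, Tbx3 and C8a in mouse 4.

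A second probe gives another reading of the same RNA sample. Among the 88 genes with an SD of 0.5 or more, 29 had another probe of at least 5 CPM, and the same mouse was highest by both probes in 20. Over all 1812 genes of at least 20 CPM with another probe of any level, it was the same mouse in 746. The SD of the other probe was at least 50% of the first in 22 of the 29 and in 1659 of the 1812. The 29 were chosen for a large SD of the first probe, so nothing is read from these shares. Agreement differed by mouse in this count, with 4 of 5 genes for control mouse 1, 10 of 13 for control mouse 3 and 5 of 10 for control mouse 4. Only mt-Nd6 was available for control mouse 2. For it the first probe had 210, 249, 207 and 88.7 CPM and the second 204.8, 706, 148 and 112 CPM.

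In some classes most genes were highest in the same mouse. Ribosomal protein genes were highest in control mouse 1 for 58 of 68, and lowest in control mouse 4 for 42, with sums of 21642, 18384, 15068 and 15230 CPM. The background over all genes was 1371 of 3697 highest in control mouse 1 and 901 lowest in control mouse 4. None of the 68 ribosomal genes reached an SD of 0.5, where all genes had 88 of 3697. Histone genes were highest in control mouse 1 for all 7 at 20 CPM or more. Genes of amino acid breakdown and the urea cycle were highest in control mouse 3 for 21 of 43, where all genes had 834 of 3697, and lowest in control mouse 1 for 17, where all genes had 704. The P450 list summed to 40154, 37989, 32217 and 39429 CPM. Of its 29 genes at 20 CPM or more, 14 were lowest and 9 highest in control mouse 3. All genes had 1258 of 3697 lowest and 834 highest there. In control mouse 1, 11 of the 29 were highest and 11 lowest, where all genes had 1371 and 704. PPARalpha and fasting targets summed to 22327, 18679, 15050 and 13551 CPM, of which Fabp1 alone held 17556, 14067, 11178 and 9583 CPM.

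The steadiest genes were of mixed function. Il6st (chr13:112464070-112510086), the shared receptor chain gp130 of interleukin 6 cytokines, had 233, 234, 232 and 233 CPM. Its SD of 0.00525 was below the 0.0335 that counting error gives for it, and it is the smallest of 3697 values from 4 mice each. Spcs3, of the signal peptidase, had 484, 490, 486 and 477 CPM. Ces2e, a carboxylesterase, had 588, 588, 578 and 595 CPM. Srrm2, Bgn, Clcc1, Psmd9, Cnot4 and Snx14 were also among the 10 steadiest, with SDs between 0.0203 and 0.0221. Where these genes had a second probe, it was less steady, with an SD of 0.0832 for Clcc1, 0.192 for Srrm2, 0.194 for Cnot4 and 0.228 for Bgn. The second probes of Psmd9 and Spcs3 had SDs of 0.334 and 0.406. Among genes used as assay references, Hprt had 314, 294, 308 and 309 CPM, Gapdh 122, 135, 128 and 112 CPM and Actb 117, 102, 157 and 131 CPM.

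The baseline was then set beside the treated groups. Mouse 4 of 3 mg/kg and mouse 4 of 6 mg/kg stood apart from their groups. Ces2e, for example, had 23.2 and 125 CPM in them, against 586 to 645 and 587 to 607 CPM in the other 3 mice of each dose. The same 3697 genes had a median SD of 0.180 in controls, 0.169 at 0.03, 0.156 at 0.3, 0.263 at 3 and 0.269 at 6 mg/kg. Without mouse 4 of either dose the median SD was 0.131 at 3 and 0.127 at 6 mg/kg. The 100 genes most variable in controls were chosen for that spread, and their median SD of 0.567 in controls is a description. In groups that did not choose them, their median SD was 0.420 at 0.03, 0.336 at 0.3, 0.494 at 3 and 0.440 at 6 mg/kg, and without those mice 0.253 at 3 and 0.255 at 6 mg/kg. Of these 100 genes, 97 lay above the group's own median SD at 0.03, 89 at 0.3, 78 at 3 and 75 at 6 mg/kg. In each group's own 100 most variable genes, 32 of them were found at 0.03, 32 at 0.3, 8 at 3 and 10 at 6 mg/kg, and without mouse 4 of either dose 23 at 3 and 18 at 6 mg/kg. At 0.03 mg/kg, leaving out mouse 4 lowered the median SD of the 100 genes to 0.258. Dbp had an SD of 1.61 at 0.03 mg/kg, where its values ran between 12.7 and 137 CPM. Il6st had an SD of 0.0694 at 0.03, 0.148 at 0.3, 0.0563 at 3 and 0.0684 at 6 mg/kg, and that at 0.3 mg/kg was near the median of all genes. The 10 steadiest genes of the controls had a median SD of 0.0204 there by choice, and of 0.119 at 0.03, 0.0752 at 0.3, 0.186 at 3 and 0.210 at 6 mg/kg. Of the 30 most abundant genes of the controls, 28 were also in the top 30 at 0.03, 29 at 0.3, 25 at 3 and 21 at 6 mg/kg. Mup4 had 46257 to 57599 CPM at 0.03 mg/kg and 7715 to 31931 CPM at 6 mg/kg, and all 4 values at 6 mg/kg lay below every control.

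At the lowest dose, 0.03 mg/kg, no difference from the controls passed. In edgeR's quasi-likelihood test with Benjamini-Hochberg adjustment, 0 of 10097 genes, or 0%, had an adjusted p under 0.05, and 0 of 14122 probes. Of the probes, 457 had an unadjusted p under 0.05, where 706 would be expected by chance, and the lowest adjusted p was 0.405. DESeq2 called 2 probes, both lower at 0.03 mg/kg. One was Gm10720, with a log2 change of -6.54 ± 1.42 (SE) and an adjusted p of 0.0306, whose control mean rests on control mouse 2. The other was Rgs3, a regulator of G protein signalling, with -1.89 ± 0.36 and an adjusted p of 0.00207. These 2 were named after their values were seen. Bcl6, for which all 4 mice at 0.03 mg/kg exceeded 3 of the 4 controls, had a log2 change of 1.04 ± 0.55 (SE) and an edgeR adjusted p of 0.9996.

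At the highest dose, 6 mg/kg, edgeR called 2072 of 10097 genes, or 20.5%, with 1099 higher (10.9%) and 973 lower (9.64%). The libraries of this dose sat in another plate row than the controls, so dose and plate row cannot be told apart. By probe, 2867 of 14122 passed, 1634 higher and 1233 lower, and with no scaling beyond total counts the split was 1894 higher and 811 lower. Without mouse 4 of 3 and of 6 mg/kg, 3961 probes passed, 2003 higher and 1958 lower. Of the 100 most abundant genes in controls, 9 rose and 32 fell, with a median log2 change of -0.34, where all genes tested had -0.02. Since the list was chosen on high control values, nothing is read from its lean to lower values. Cyp2e1 fell by 0.81 ± 0.16 (SE) on the log2 scale with an edgeR adjusted p of 0.00161, and Uox fell by 0.81 ± 0.21 with an adjusted p of 0.00829. Alb fell by 0.82 ± 0.24 with an adjusted p of 0.0209. Serpina1e fell by 0.54 ± 0.13 with an adjusted p of 0.00702. These 4 calls held with any library of either group left out, with an adjusted p of up to 0.0498 for Alb. Mup4 had a change of -0.98 ± 0.39 and an adjusted p of 0.0798. Of the 30 most abundant genes, 1 was called higher and 12 lower. Mgst1 had 9291 to 12369 CPM at 6 mg/kg, against 6270 to 7725 CPM in controls. Cyp2c29 had 9933 to 13172 CPM, against 5828 to 9278 CPM in controls. Both were picked for higher values after these were seen.

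Some calls at 6 mg/kg among the genes that varied in controls rested on single libraries of either group. Serpina7 rose by 1.06 ± 0.32 (SE) on the log2 scale with an edgeR adjusted p of 0.0261. Without control mouse 1 the change was 1.76 with an adjusted p of 8.34e-06, and without control mouse 2, 3 or 4 or without mouse 1 of 6 mg/kg the call was lost, with changes of 0.84 to 0.94. Lcn2 rose by 1.31 ± 0.45 with an adjusted p of 0.0476 and kept its call in 2 of 8 such fits, those without control mouse 2 or mouse 1 of 6 mg/kg. Its change lay between 1.10 and 1.84 over the 8. Dbp fell by 2.20 ± 0.68 with an adjusted p of 0.028 and kept its call in 3 of 8, those without control mouse 1, control mouse 4 or mouse 1 of 6 mg/kg. Its change lay between -2.98 and -1.76 over the 8, and without mouse 4 of both 3 and 6 mg/kg it was -1.91 with an adjusted p of 0.111. Cyp2b10, although among the 30 most variable genes in controls, rose by 5.11 ± 0.46 with an adjusted p of 3.87e-07 and was called in all 8. Its values were 1301, 1639, 1658 and 3980 CPM at 6 mg/kg, against 90.5, 74.2, 28.9 and 54.8 CPM in controls. Of the 100 most variable genes in controls, 8 rose and 21 fell at 6 mg/kg, and of the 10 least variable, 0 rose and 2 fell, where all genes had 10.9% higher and 9.64% lower. Both lists were chosen on the control values that the test uses, so nothing is read from these counts. Il6st was 1 of these 2 and fell by 0.36 ± 0.10 with an adjusted p of 0.0195, a call lost without control mouse 4, where the change was -0.34 and the adjusted p 0.0529.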

How the data were processed

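Liver RNA of 20 mice was measured by TempO-Seq, and 1 table of probe counts was used. The deposited values are raw counts per probe, made by the authors; the submitters' processing notes name Bowtie and GRCm38.p5. The 30146 probes were assigned to 21450 genes by the symbol in the probe name. Counts were scaled to CPM with TMM factors (edgeR 4.0.16, limma 3.58.1, R 4.3.3), and a gene was represented by its probe with the highest mean count over all 20 libraries. Spread was the SD of log2(CPM + 0.5) over the 4 controls, for genes with a mean of at least 20 CPM. The 0.03 and 6 mg/kg groups were compared with controls by edgeR's quasi-likelihood test on counts, fitted over all 5 groups and 14122 probes that passed its filter and held 99.8% of counts, with Benjamini-Hochberg adjustment over all probes. The steps were tested on simulated data. DESeq2 1.42.0 was an alternative. Gene positions came from GENCODE M21, and sequences from RefSeq (GRCm38.p6). Python 3.11.15, numpy 2.4.6 and matplotlib 3.10.9 were also used.

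Named are the 30 most abundant genes, the 30 with the largest and the 10 with the smallest SD, the top 3, lowest and 2 most variable members of each gene list, and a fixed set of well-known liver genes, except where the text says otherwise. Some genes that this rule names are not reported here. The control mice and gene lists were chosen with earlier results of these data known. Replicates are separate animals, numbered in accession order. Control libraries differed by a chi-square of 12.6 to 40.9 per degree of freedom, so none was a copy of another. Limits from a count of 0 cover counting error only.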

Additional observations from a re-analysis of the deposited data

Results flagged for a closer look

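Of 142 sets of 4 control values examined, 14 had a highest or lowest mouse far from the other 3, where the gap to the nearest mouse, as a share of the range, passed the critical value of Dixon's test. Chance alone would flag about 5% of sets picked without regard to their values. Some genes here, among them Gm10720, Serpina7 and Selenot, were named for a large spread over these same 4 mice. The sets are also not independent, so the 5% is no measure for this count. Control mouse 2 was the extreme one in the 8 sets that concern the receptor background and the low end. The gap took 0.959 of the range for the summed olfactory receptors, 0.956 for vomeronasal receptors, 0.949 for taste receptors and 0.983 for keratin-associated proteins. It took 0.866 for beta-defensins, 0.979 for interferon genes, 0.97 for Gm10720 and 0.858 for the number of probes at 0. The cause was not tested.

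Control mouse 1 stood apart for Serpina7, with a gap of 0.845, and control mouse 4 for Selenot, with 0.907. For Cyp3a41b the gap was 0.848 and for the summed bile duct markers 0.859. Mup5 and Timd4 had a gap of 1 because a single library held their counts, 1 count for Mup5 in control mouse 2 and 3 for Timd4 in control mouse 1.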

How the results depend on the processing

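No paired analysis was made, because each library came from a separate mouse and the labels name no pairs between dose groups. With all probes of a symbol summed, the top 10 genes held 21.483% and the top 100 held 49.525% of the counts. With a minimum of 5 CPM the median SD was 0.2051 and 22 genes had an SD of 1 or more; with a minimum of 50 CPM, 2 did. DESeq2 called 2 probes at 0.03 mg/kg, where edgeR called 0 in every other setting. Leaving out 1 control at a time gave 17.538 to 19.612% for the top 10 genes and 39.855 to 41.251% for the top 100. It gave 144.33 to 162.67 probes for 50% of counts, 9437 to 9708 genes of at least 1 CPM and 5030 to 7642 probes at 0, the last without control mouse 2. The median SD ran between 0.1616 and 0.19207, and 5 to 9 genes had an SD of 1 or more. Of the 30 most abundant genes 29 to 30 remained, and of the 30 most variable 18 to 25. Leaving out 1 library gave 0 to 0 calls at 0.03 mg/kg and 2120 to 2998 at 6 mg/kg. Without mouse 4 of 3 and of 6 mg/kg, an alternative chosen after seeing the data, 3961 probes were called at 6 mg/kg, 2003 higher and 1958 lower. Scaling to total counts moved 20 of 384 named levels by more than their SD, and DESeq2 size factors moved 0. With 4 mice a single SD is imprecise, and a level under 0.420 CPM rests on 3 counts or fewer in a library. Leaving out each mouse of the treated groups, also chosen after seeing the data, gave a median SD of 0.133 to 0.186 at 0.03, 0.111 to 0.168 at 0.3, 0.131 to 0.291 at 3 and 0.127 to 0.305 at 6 mg/kg, with the lowest value without mouse 4 in each.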
